A study of Mus musculus with 4 samples.

Results

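Chemokines are small secreted or membrane-tethered proteins that guide leukocytes along a gradient, and their receptors couple to inhibitory G proteins on the migrating cell. The genes described here are all those whose symbol starts with Ccl, Cxcl, Ccr or Cxcr and a digit, or with Ackr, together with Cx3cl1, Cx3cr1, Xcl1, Xcr1, Ccrl2 and Cklf. The rule found 65 of the 56953 gene rows in the deposited count table. They comprised 25 CC ligands, 13 CXC ligands, 2 ligands of the CX3C and XC classes, Cklf, 19 receptors and 5 atypical receptors. The class names describe the spacing of the first cysteines of the protein. In liver, hepatocytes, Kupffer cells, sinusoidal endothelium and stellate cells all make chemokines, and the receptors sit mainly on leukocytes.

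The libraries came from liver of 2-month-old mice on a normal diet. The deletion group held 2 libraries labelled Ubc13 flox/flox Alb positive, with a hepatic deletion of Ubc13 (gene symbol Ube2n), the E2 enzyme for K63-linked ubiquitin chains, which act on the path to NF-κB. The control group held 2 libraries labelled Ubc13 flox/flox Alb negative and WT, so both groups carried the floxed alleles. The labels give no Cre driver beyond the word Alb, and they give no strain or sex and do not say whether replicates were separate animals. The p-values therefore measure only the spread between these libraries, which may be technical in the controls. The 2 deletion libraries differed in Y-linked RNA, given below, and so were not repeats of 1 RNA sample. Liver is the labelled source, but the library protocol names primary hepatocytes.

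Total counts ran from 16270424 to 17800138 per library, and 3 counts corresponded to 0.169 to 0.184 CPM when scaled by the total alone. The CPM values of genes are scaled by the total and the TMM factor of edgeR. Ube2n had 5.88 and 5.97 CPM in the deletion libraries, against 41.3 and 44.9 CPM in the controls. Xist, the female-specific RNA, had 9590 and 3896 counts in deletion replicates 1 and 2, against 9 and 2 in the controls. Of the Y chromosome, Eif2s3y, Ddx3y, Kdm5d and Uty had 0 counts in deletion replicate 1 and 206 to 719 in deletion replicate 2, against 216 to 1027 in the controls. Sex-linked RNA thus differed between the groups and within the deletion group, and genotype and sex cannot be told apart in any comparison here. Deletion replicate 2 held both Xist and Y-linked RNA, and whether it mixed RNA of several animals was not tested. Among 14 monocyte and macrophage markers, 5 of the 13 tested rose and 0 fell in edgeR, against 4.41% and 2.16% of all genes. At an unadjusted p under 0.05, 9 were higher (14.0% of all genes), and DESeq2 called 5 higher (6.57% of all genes). Of the 13, 2 reached 10 counts in both deletion libraries but not in both controls. The 14 markers summed to 582 and 545 CPM in the deletion libraries, against 208 and 247 CPM in the controls. In bulk RNA, whether of liver or of a hepatocyte preparation, more cells of a type and more RNA per cell cannot be told apart.

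Chemokine and receptor genes together took 0.0861% of all counts in deletion replicate 1 (exact Clopper-Pearson 95% interval from 0.0847 to 0.0875) and 0.0720% in deletion replicate 2 (0.0708 to 0.0733). In control replicates 1 and 2 they took 0.0483% (0.0473 to 0.0493) and 0.0560% (0.0549 to 0.0572). These intervals cover counting error only, and the shares are of raw totals without TMM scaling. With TMM scaling, the 65 genes summed to 801 and 634 CPM in deletion replicates 1 and 2. In control replicates 1 and 2 they summed to 530.4 and 626 CPM, so deletion replicate 2 was close to control replicate 2. Such libraries give reads from close to a transcript's 3' end, so CPM values were compared between genes without dividing by length. Of these counts, Cxcl12 held 27.5% and 31.6% in the deletion libraries, against 62.8% and 70.7% in the controls. Ccl9 held 26.1% and 35.6% in the deletion libraries, against 21.7% and 14.4% in the controls.

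Enough counts for a test were found for 31 of the 65 genes. Of these, 5 rose in the deletion libraries and 0 fell (edgeR quasi-likelihood test, Benjamini-Hochberg adjusted p under 0.05). The 5 were the ligands Cxcl14, Cxcl9, Cxcl16 and Ccl9 and the receptor Cx3cr1. Over all 14600 genes tested, 4.41% were called higher and 2.16% lower. At an unadjusted p under 0.05, 16 of the 31 were higher and 2 lower, against 14.0% and 10.5% of all genes. DESeq2 called 10 higher and 1 lower, against 6.57% and 4.25% of all genes it tested. With limma-voom 5 were higher and 0 lower (4.12% and 2.14% of all genes), and with library sizes alone 8 and 0 (10.7% and 1.38%). Without deletion replicate 1 the counts were 3 and 0 (2.20% and 1.04%), and without deletion replicate 2 they were 7 and 0 (1.59% and 0.654%). Both deletion libraries lay above both controls for 17 of the 31 and below both for 6, where 28.7% and 27.3% of all tested genes did so. The median log2 fold change was 1.08, against 0.00 over all tested genes. Of the 31, 5 reached 10 counts in both deletion libraries but not in both controls, and 2 the other way round. Those 5 were Cxcl14, Ccl2, Ccr1, Ccr3 and Cxcr3, and the 2 were Cxcl11 and Cxcl13. Genes of that kind entered the test through the group in which they were high, so these counts and the median describe the genes that passed and not the whole family.

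**Figure D1:**
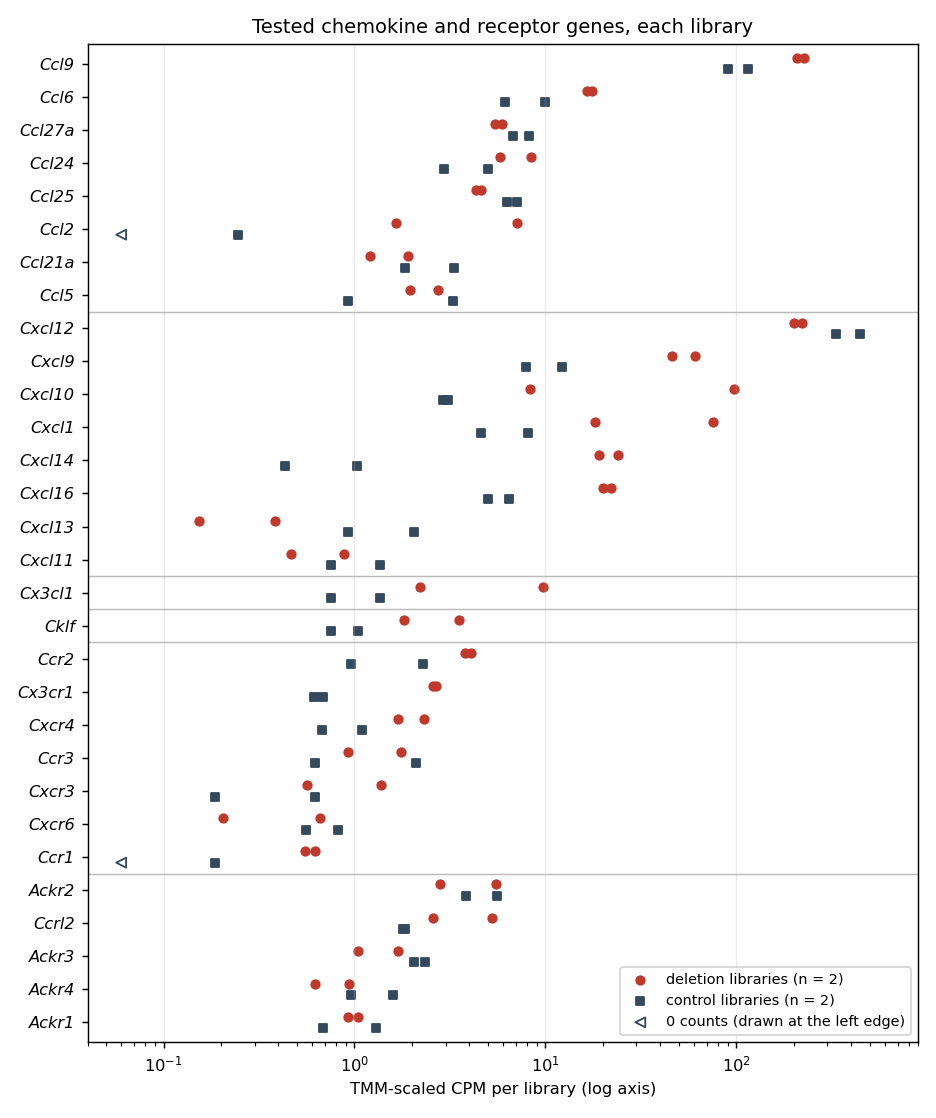
Level of 30 of the 31 tested genes in each library, as TMM-scaled CPM on a log axis, with deletion libraries as circles and controls as squares, grouped as CC ligands, CXC ligands, Cx3cl1, Cklf, receptors and atypical receptors. Cxcl14, Cxcl9 and Cxcl16 have both circles far to the right of both squares, while the circles of Cxcl10, Cxcl1, Ccl2 and Cx3cl1 lie far apart from each other. Open triangles at the left edge mark libraries with 0 counts.

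Among the CXC ligands, 8 of 13 were tested, 3 rose and 0 fell, against 4.41% and 2.16% of all genes. Cxcl14, a homeostatic chemokine of epithelia, had 23.9 and 19.2 CPM in the deletion libraries, against 0.432 and 1.03 CPM in the controls. Both deletion libraries stood far above both controls, from 435 and 374 counts in the deletion libraries and 7 and 15 in the controls. Control replicate 1 was under 10 counts, so Cxcl14 passed the filter on low counts through the deletion libraries. The rise was 29.7-fold, or 4.89 ± 0.38 on the log2 scale (SE; edgeR adjusted p = 0.00401). In order of mean CPM among the 31 genes, Cxcl14 was 6 in the deletion libraries and 26 in the controls. Cxcl14 (ENSMUSG00000021508) lies on chromosome 13 from 56288643 to 56296551 on the minus strand (GRCm38).

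Cxcl9 and Cxcl10 are interferon-induced ligands of Cxcr3 that attract activated T cells and natural killer cells, and with Cxcl11 they lie within 44.1 kb on chromosome 5. Cxcl9 had 46.3 and 60.6 CPM in the deletion libraries, against 7.90 and 12.2 CPM in the controls. The groups were well apart, a rise of 5.32-fold (log2 fold change 2.41 ± 0.26, edgeR adjusted p = 0.00814). Cxcl10 had 97.5 and 8.34 CPM in deletion replicates 1 and 2, against 2.90 and 3.09 CPM in the controls. Both deletion libraries were above the controls, but deletion replicate 1 was 11.7 times as high as deletion replicate 2. Its log2 fold change of 4.14 ± 1.11 did not pass (edgeR adjusted p = 0.0842). It passed with DESeq2 (0.0366) but not with limma-voom (0.314). Its log2 fold change was 5.02 without deletion replicate 2 and 1.46 without deletion replicate 1. Cxcl11, which GENCODE annotates as a polymorphic pseudogene, had 0.879 and 0.463 CPM in the deletion libraries, against 1.36 and 0.756 CPM in the controls. Its groups overlapped (log2 fold change -0.66 ± 0.56, edgeR adjusted p = 0.532).

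The promoter windows of the called ligands with a RefSeq entry are printed with those of Cxcl10 and Cxcl1. Cxcl10 and Cxcl1 were added after their values were seen, because their levels differed between the deletion libraries. Each is the 250 bases before the RefSeq transcription start, 5′ to 3′ on the gene's strand (GRCm38.p6), and capitals mark matches to a motif on either strand. The motifs were the NF-κB consensus, a doubled interferon-response half-site (ISRE, GAAA and GAAA with 2 bases between), the STAT site called GAS (TTCNNNGAA) and AP-1 (TGANTCA).
Cxcl9 (chr5:92328080-92328329, minus strand): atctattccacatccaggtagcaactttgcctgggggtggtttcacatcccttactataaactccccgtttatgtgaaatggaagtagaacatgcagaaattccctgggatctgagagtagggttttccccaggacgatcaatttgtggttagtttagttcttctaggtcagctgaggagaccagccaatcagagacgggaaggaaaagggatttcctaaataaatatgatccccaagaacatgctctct
Cxcl10 (chr5:92348890-92349139, minus strand): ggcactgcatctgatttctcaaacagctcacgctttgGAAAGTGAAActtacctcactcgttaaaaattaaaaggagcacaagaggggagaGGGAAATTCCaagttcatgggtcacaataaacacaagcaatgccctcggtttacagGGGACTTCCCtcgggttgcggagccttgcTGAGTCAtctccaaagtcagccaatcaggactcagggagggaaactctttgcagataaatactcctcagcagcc
Cxcl1 (chr5:90890995-90891244, plus strand): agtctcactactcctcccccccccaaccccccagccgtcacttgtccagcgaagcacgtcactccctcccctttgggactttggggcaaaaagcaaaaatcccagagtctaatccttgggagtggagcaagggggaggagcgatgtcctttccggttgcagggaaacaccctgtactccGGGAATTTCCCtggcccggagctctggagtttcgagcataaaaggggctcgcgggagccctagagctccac
Cxcl14 (chr13:56296552-56296801, minus strand): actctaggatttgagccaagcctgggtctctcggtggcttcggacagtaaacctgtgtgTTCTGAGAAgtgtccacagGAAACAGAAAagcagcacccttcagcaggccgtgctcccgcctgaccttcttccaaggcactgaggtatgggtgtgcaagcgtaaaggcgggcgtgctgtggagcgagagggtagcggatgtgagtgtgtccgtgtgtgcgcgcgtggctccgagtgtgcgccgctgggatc
Ccl9 (chr11:83578637-83578886, minus strand): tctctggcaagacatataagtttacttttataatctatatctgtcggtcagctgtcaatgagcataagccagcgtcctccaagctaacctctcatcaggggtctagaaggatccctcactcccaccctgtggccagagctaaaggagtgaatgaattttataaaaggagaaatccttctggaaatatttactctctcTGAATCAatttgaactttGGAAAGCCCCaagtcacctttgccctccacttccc

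Cxcl10 held NF-κB matches starting 159 and 103 bases before the start, an ISRE match at 213 and an AP-1 match at 74. Cxcl1 held 2 overlapping NF-κB matches, 1 on each strand, starting 71 and 70 bases before the start. Cxcl14 held a GAS match at 191 and an ISRE match at 172, and Ccl9 an AP-1 match at 53 and an NF-κB match at 35. Cxcl9 held no match in this window, which says only that these letters are not there. Of the 65 genes, 48 had an entry, with 57 windows in all. The NF-κB consensus was in 10 of the 57 windows, ISRE in 3, GAS in 4 and AP-1 in 6. Over all 32851 windows of the same length the shares were 3.90%, 2.98%, 7.02% and 6.75%. A match describes the letters only. Cxcl16 had no entry.

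Cxcl16 is made as a membrane-bound protein, is shed from the cell surface by the protease Adam10, and attracts Cxcr6-bearing T cells, which are common in liver sinusoids. It had 22.1 and 20 CPM in the deletion libraries, against 5.0 and 6.46 CPM in the controls. Both groups were tight and did not overlap. The rise was 3.68-fold (log2 fold change 1.88 ± 0.21, edgeR adjusted p = 0.00886). Zmynd15 overlaps it on the opposite strand and had 229 and 249 counts in deletion replicates 1 and 2, against 92 and 57 in the controls. The counts of Cxcl16 and Zmynd15 cannot be told apart if strand was not used in counting.

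Cxcl1 attracts neutrophils through Cxcr2. It had 75.8 and 18.3 CPM in deletion replicates 1 and 2, against 8.08 and 4.60 CPM in the controls. Both deletion libraries were higher, the first 4.14 times the second, and the log2 fold change of 2.88 ± 0.68 did not pass (edgeR adjusted p = 0.0620). DESeq2 called it (0.0385) and limma-voom did not (0.141). Without deletion replicate 2 or 1 the log2 fold change was 3.57 and 1.52. Its neighbours and fellow Cxcr2 ligands did not pass the filter on low counts. Cxcl2 had 50 and 4 counts in deletion replicates 1 and 2, against 3 and 7 in the controls. It was called higher with no filter, and not with DESeq2 (0.354) or in edgeR without deletion replicate 2 (0.155). Cxcl5 had 2 and 14 counts in the deletion libraries, against 1 and 0 in the controls, a ratio of 13.1 (exact counting interval 2.03 to 549). Such an interval pools the libraries of each group and covers counting error only, not the spread between libraries. Cxcl3 had 1 count in all and Cxcl15 had 0. Cxcr2 and Cxcr1, the receptors of this group, had at most 6 counts in any library. The 12 neutrophil markers summed to 10.4 and 9.26 CPM in the deletion libraries, against 2.34 and 5.36 CPM in the controls. Of these, 3 could be tested, and 0 passed in edgeR or DESeq2. At an unadjusted p under 0.05, 2 were higher, against 14.0% of all genes. Each of the 3 had both deletion libraries above both controls, as did 28.7% of all tested genes. However, 2 of the 3 reached 10 counts in both deletion libraries but not in both controls. Those 2 entered the test through the group in which they were high. The defining marker Ly6g was at 0 in all 4 libraries, and the part of neutrophils in the Cxcl1 difference was not tested.

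Cxcl12, the ligand that holds leukocytes and progenitors in tissue through Cxcr4, had the highest mean level of the 31 genes. It had 221 and 201 CPM in the deletion libraries, against 333 and 443 CPM in the controls. Both deletion libraries were lower, with a log2 fold change of -0.88 ± 0.19 that narrowly missed the threshold (edgeR adjusted p = 0.0535). It passed with DESeq2 (0.00159), with no filter on low counts (edgeR, 0.000435) and narrowly with a filter of at least 30 counts in 2 libraries (edgeR, 0.0499). It did not pass with limma-voom (0.0550), or in edgeR with library sizes alone (0.0877) or a replicate block (0.104). With 1 library left out, its log2 fold change ran from -1.07 to -0.66. Markers of sinusoidal endothelium, a cell type that makes Cxcl12, summed to 217 and 213 CPM in the deletion libraries, against 245 and 289 CPM in the controls. Stellate cell markers summed to 506 and 505 CPM in the deletion libraries, against 586 and 476 CPM in the controls, and overlapped. The part of either cell type in the Cxcl12 difference was not tested. Cxcl13, the B cell attractant, had 7 and 3 counts in the deletion libraries, against 15 and 30 in the controls, which is 0.385 and 0.154 CPM in the deletion libraries, against 0.925 and 2.06 CPM in the controls. The groups did not overlap, but the log2 fold change of -2.44 ± 0.69 did not pass (edgeR adjusted p = 0.0954, DESeq2 0.114, limma-voom 0.121). Cxcl13 stood at -2.92 without control replicate 1 and -1.77 without control replicate 2. Its receptor Cxcr5 had at most 2 counts in any library.

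**Figure D2:**
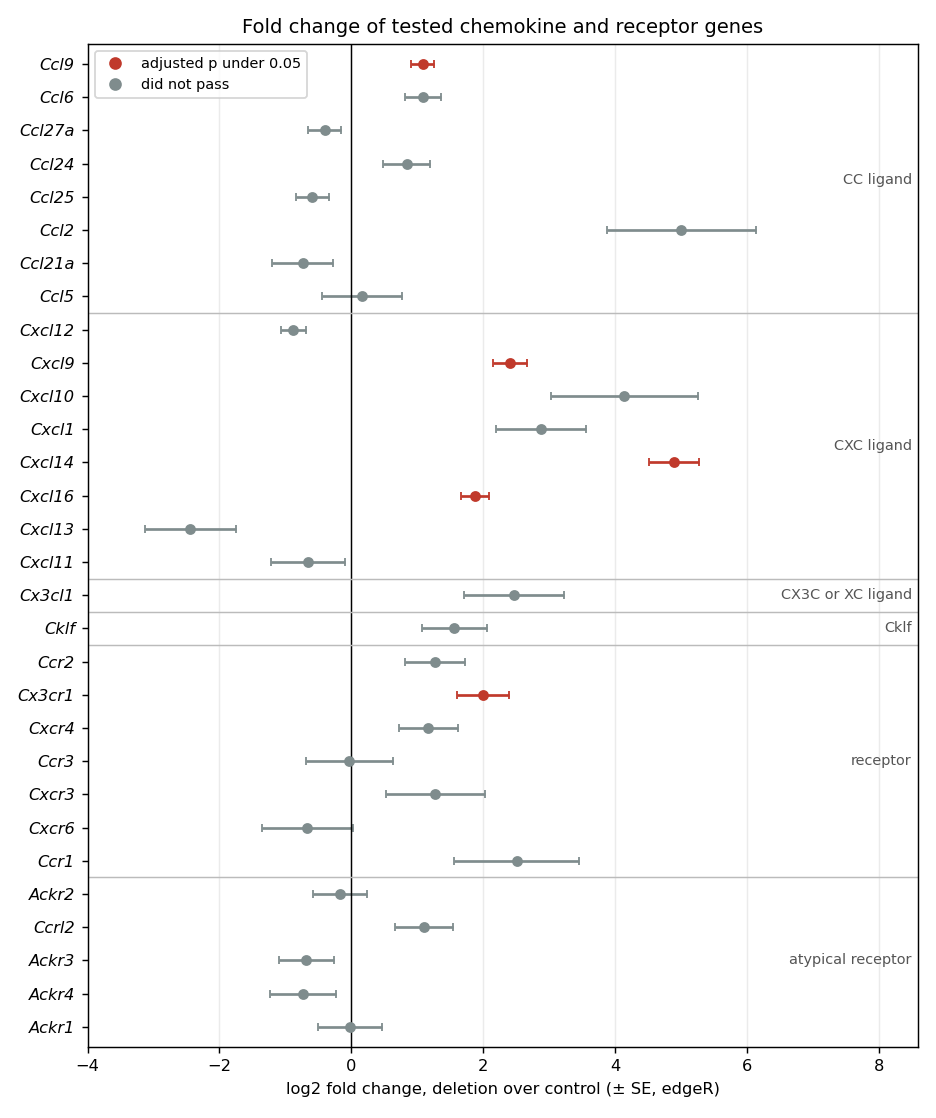
Log2 fold change of deletion over control for 30 of the 31 tested genes, with SE bars derived from the edgeR F statistic (2 libraries per group) and the class of the gene at the right. The 5 called genes lie right of 0, between 1.08 and 4.89, and the widest bars belong to Ccl2 and Cxcl10.

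Of the 25 CC ligands, 8 were tested, 1 rose and 0 fell, against 4.41% and 2.16% of all genes. At an unadjusted p under 0.05, 3 were higher and 0 lower, against 14.0% and 10.5%. DESeq2 called 3 higher and 0 lower, against 6.57% and 4.25% of all genes it tested. Ccl9, a rodent ligand of Ccr1, had 209 and 226 CPM in the deletion libraries, against 115 and 90.1 CPM in the controls. The groups were apart by more than their spread, a rise of 2.12-fold (log2 fold change 1.08 ± 0.18, edgeR adjusted p = 0.0250). Without deletion replicate 1 or 2 the call was lost (0.0637 and 0.113), while the log2 fold change was 1.13 and 1.02. Ccl6, the adjacent rodent gene on chromosome 11 and also a Ccr1 ligand, had 16.5 and 17.5 CPM in the deletion libraries, against 6.11 and 9.96 CPM in the controls. Its groups did not overlap, and its log2 fold change of 1.09 ± 0.27 did not pass (edgeR adjusted p = 0.0681, limma-voom 0.0567). Ccl6 passed with DESeq2 (0.0196), and stood at 0.77 and 1.48 without control replicates 1 and 2. Ccl5, in the same cluster of 5 genes within 139 kb, had 2.75 and 1.96 CPM in the deletion libraries, against 0.925 and 3.30 CPM in the controls. Its groups overlapped (log2 fold change 0.16 ± 0.61, edgeR adjusted p = 0.905). The other genes of that cluster, Ccl3 and Ccl4, were too low to test. Ccl3 had 4 and 1 counts in the deletion libraries, against 0 and 1 in the controls, a ratio of 4.09 (exact counting interval 0.457 to 193, counting error only). Ccl4 had 13 and 2 counts in the deletion libraries, against 1 and 3 in the controls.

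Ccl2 recruits Ccr2-bearing monocytes from blood. It had 129 and 32 counts in deletion replicates 1 and 2, or 7.09 and 1.65 CPM, against 4 and 0 counts in the controls, or 0.247 and 0 CPM. Both deletion libraries stood above both controls, and deletion replicate 1 was 4.30 times as high as deletion replicate 2. The log2 fold change of 5.0 ± 1.13 did not pass (edgeR adjusted p = 0.0571, limma-voom 0.114), though it did with DESeq2 (0.000105). It was 5.70 without deletion replicate 2 and 3.60 without deletion replicate 1. Ccl2 was under 10 counts in both controls and passed the filter on low counts through the deletion libraries. Without control replicate 1 or 2, Ccl2 (0.00202 and 0.00673), Cxcl1 (0.00197 and 0.00651) and Cxcl10 (0.0134 and 0.00862) passed in edgeR. Ccl7, the neighbour of Ccl2 and another Ccr2 ligand, had 9 and 2 counts in the deletion libraries, against 1 and 0 in the controls. The ratio was 8.99 (exact counting interval 1.31 to 387, which does not cover the spread between libraries).

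Of the remaining tested CC ligands, none of the 4 passed (edgeR adjusted p from 0.220 to 0.385; also 0 at an unadjusted p under 0.05). Ccl24, an eosinophil attractant that acts on Ccr3, had 8.41 and 5.82 CPM in the deletion libraries, against 2.96 and 5.02 CPM in the controls. Ccl25, the thymic and gut ligand of Ccr9, had 4.34 and 4.58 CPM in the deletion libraries, against 6.29 and 7.14 CPM in the controls. Neither gene overlapped between groups, and neither passed with DESeq2 (0.302 and 0.452) or limma-voom (0.206 and 0.209). Ccl27a had 5.44 and 5.92 CPM in the deletion libraries, against 8.20 and 6.8 CPM in the controls. Ccl21a, a lymphoid-tissue attractant, had 1.21 and 1.90 CPM in the deletion libraries, against 3.33 and 1.85 CPM in the controls. Ccl27a and Ccl21a had log2 fold changes of -0.40 ± 0.25 and -0.74 ± 0.46, and reads of both can be shared with near-identical copies. Ccl25 and Ccl27a also overlap Elavl1 and Il11ra1 on the opposite strand.

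Cx3cl1, or fractalkine, is a membrane-bound chemokine of endothelium and epithelium, and Cx3cr1 is its receptor on monocytes and tissue macrophages. Cx3cr1 had 2.69 and 2.57 CPM in the deletion libraries, against 0.617 and 0.687 CPM in the controls, from 49 and 50 counts in the deletion libraries and 10 in each control. Within each group the values were nearly equal, and the rise was 4.01-fold (log2 fold change 2.00 ± 0.39, edgeR adjusted p = 0.0391). Its call was lost without deletion replicate 1 (0.194), deletion replicate 2 (0.230) or control replicate 1 (0.0553), with log2 fold changes of 1.96, 2.03 and 1.92. The annotated gene spans Wdr48, Gorasp1 and Csrnp1, each with more counts than Cx3cr1, so its counts are uncertain. Cx3cl1 had 9.67 and 2.21 CPM in deletion replicates 1 and 2, against 1.36 and 0.756 CPM in the controls. Both deletion libraries were higher, the first 4.37 times the second, and the log2 fold change of 2.47 ± 0.76 did not pass (edgeR adjusted p = 0.116). Cx3cl1 passed with DESeq2 (0.0103), but not with limma-voom (0.248) or a replicate block in edgeR (0.0855). Its log2 fold change was 3.18 without deletion replicate 2 and 1.05 without deletion replicate 1.

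Cklf, a chemokine-like factor outside the cysteine classes, had 1.81 and 3.55 CPM in the deletion libraries, against 1.05 and 0.756 CPM in the controls. Here deletion replicate 2 was the higher, and the log2 fold change of 1.56 ± 0.49 did not pass (edgeR adjusted p = 0.122). Xcl1 had 1 count in all libraries together, in a control, and its receptor Xcr1, a mark of cross-presenting dendritic cells, had 4 and 8 counts in the deletion libraries, against 5 and 2 in the controls.

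Of the 19 receptors, 8 were tested, of which Cx3cr1 rose and 0 fell, against 4.41% and 2.16% of all genes. At an unadjusted p under 0.05, 5 were higher and 0 lower, against 14.0% and 10.5%. DESeq2 called 1 higher and 0 lower, against 6.57% and 4.25% of all genes it tested. Of the 8, 3 (Ccr1, Ccr3 and Cxcr3) reached 10 counts in both deletion libraries but not in both controls, and 0 the other way round. The filter thus let in genes through the deletion libraries only. Ccr2, the receptor of inflammatory monocytes, had 4.07 and 3.81 CPM in the deletion libraries, against 2.28 and 0.962 CPM in the controls. Cxcr4, the receptor of Cxcl12, had 2.31 and 1.70 CPM in the deletion libraries, against 0.679 and 1.1 CPM in the controls. Neither Ccr2 nor Cxcr4 overlapped between groups, and their log2 fold changes of 1.27 ± 0.45 and 1.17 ± 0.45 did not pass (edgeR adjusted p = 0.160 and 0.181). Ccr2 did not pass with DESeq2 (0.194) or limma-voom (0.130). Its log2 fold change was 2.02 without control replicate 1 and 0.78 without control replicate 2. Ccr1, the receptor of Ccl9 and Ccl6, had 10 and 12 counts in the deletion libraries, against 3 and 0 in the controls, a ratio of 6.0 (exact counting interval 1.80 to 31.3, counting error only). Its log2 fold change of 2.51 ± 0.95 did not pass (edgeR adjusted p = 0.176).

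Receptors of the lymphocyte-attracting ligands were low. Cxcr3, the receptor of Cxcl9 and Cxcl10, had 25 and 11 counts in the deletion libraries, against 3 and 9 in the controls. Its values overlapped between groups once scaled, at 1.37 and 0.566 CPM in the deletion libraries, against 0.185 and 0.618 CPM in the controls. It was 2.42-fold higher on average, at 1.27 ± 0.75 on the log2 scale, and did not pass (edgeR adjusted p = 0.361). Cxcr6, the receptor of Cxcl16, had 12 and 4 counts in the deletion libraries, against 9 and 12 in the controls, at -0.67 ± 0.69 on the log2 scale (edgeR adjusted p = 0.611). Fyco1, on the opposite strand of Cxcr6, had 2713 counts over the 4 libraries, against 37 of Cxcr6, so the counts of Cxcr6 are uncertain if strand was not used. Ccr3, the receptor of Ccl24, had 1.76 and 0.926 CPM in the deletion libraries, against 2.10 and 0.618 CPM in the controls, and overlapped as well. T cell markers summed to 10.8 and 7.46 CPM in the deletion libraries, against 4.94 and 7.28 CPM in the controls, and natural killer cell markers to 3.85 and 3.40 CPM in the deletion libraries, against 2.34 and 4.47 CPM in the controls. Of the T cell list 5 of 12 genes were tested, and of the natural killer list 3 of 8, with 0 called in either by edgeR or DESeq2 and 0 at an unadjusted p under 0.05.

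Atypical receptors bind chemokines without coupling to G proteins and scavenge or present them. All 5 were tested and 0 passed in edgeR (1 was higher and 0 lower at an unadjusted p under 0.05, and DESeq2 called 0). Ccrl2, which presents the attractant chemerin, had 5.28 and 2.57 CPM in the deletion libraries, against 1.85 and 1.79 CPM in the controls. The groups did not overlap, at 1.1 ± 0.44 on the log2 scale (edgeR adjusted p = 0.191). Ackr3, the scavenger of Cxcl12, had 1.04 and 1.70 CPM in the deletion libraries, against 2.34 and 2.06 CPM in the controls. Ackr4, the scavenger of Ccl19, Ccl21 and Ccl25, had 0.934 and 0.618 CPM in the deletion libraries, against 1.6 and 0.962 CPM in the controls. Ackr3 and Ackr4 were lower in both deletion libraries, at -0.68 ± 0.41 and -0.73 ± 0.50 on the log2 scale (edgeR adjusted p = 0.372 and 0.431). Acad11, on the opposite strand of Ackr4, had 13383 counts over the 4 libraries, against 69 of Ackr4, so the counts of Ackr4 are uncertain in the same way as those of Cxcr6. Ackr1 had 1.04 and 0.926 CPM in the deletion libraries, against 1.30 and 0.687 CPM in the controls. Ackr2, a scavenger of inflammatory CC chemokines, had 2.80 and 5.51 CPM in the deletion libraries, against 3.82 and 5.56 CPM in the controls. Both overlapped between groups. The summed level of the 5 was 11.1 and 11.3 CPM in the deletion libraries, against 10.9 and 11.1 CPM in the controls.

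The 2 deletion libraries differed from each other for part of the family. Of the 31 tested genes, 8 (25.8%) were over 2-fold higher in deletion replicate 1 than in deletion replicate 2, and 0 the other way. Over all tested genes with a count in both, 2.45% and 3.71% were so. The 8 were Cxcl10, Cx3cl1, Ccl2, Cxcl1, Cxcr6, Cxcl13, Cxcr3 and Ccrl2, of which Cxcr6 and Cxcl13 had at most 12 counts in either deletion library. Deletion replicate 1 was the library with 9590 Xist counts and no Y-linked counts, and the part of sex in this difference was not tested. A gene that differs this much between replicates is less likely to pass the test, so agreement among the called genes is set by the call and is not a result. Relative to the control mean, Cxcl10 stood at a log2 ratio of 5.03 in deletion replicate 1 and 1.48 in deletion replicate 2.

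**Figure D3:**
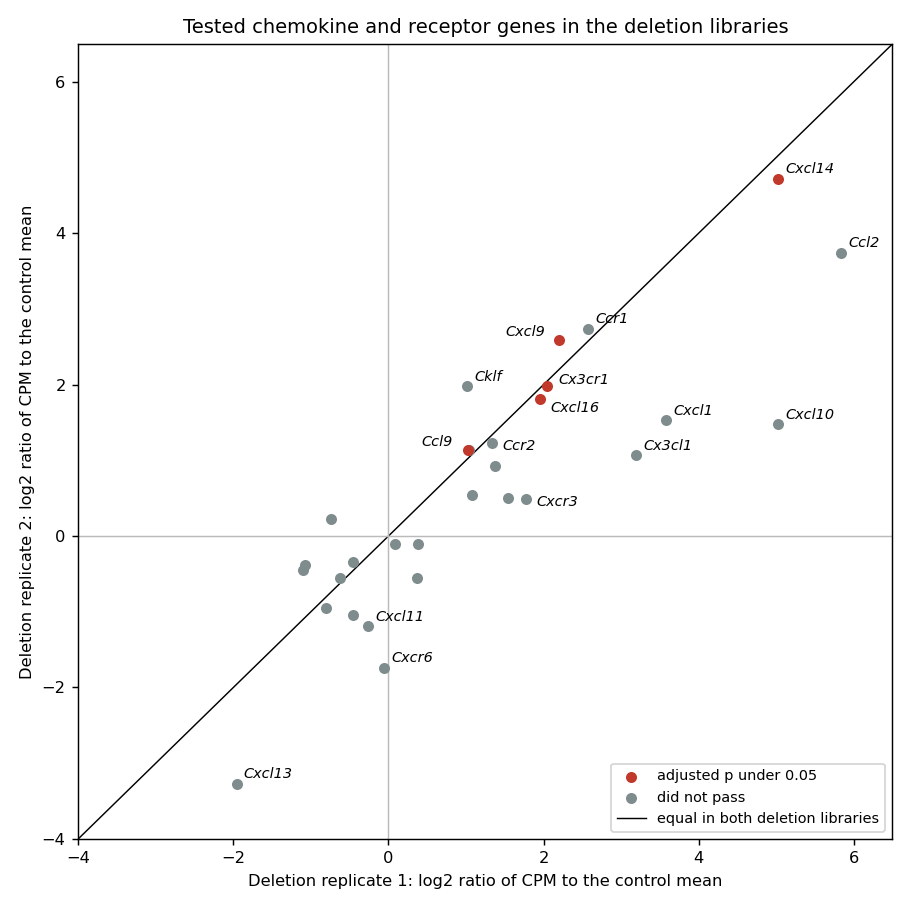
Log2 ratio of CPM to the control mean for 30 of the 31 tested genes, in deletion replicate 1 (horizontal) and deletion replicate 2 (vertical), with called genes in red. Cxcl10 (5.03 and 1.48), Cxcl1 (3.58 and 1.53), Cx3cl1 (3.19 and 1.07) and Ccl2 (5.84 and 3.74) lie below the line of equal values.

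The 34 genes below the filter include 7 with no count in any library, namely Ccl1, Ccl19-ps1, Ccl21b, Ccl26, Ccl27b, Ccr8 and Cxcl15. For these a count of 0 allows a level of up to 0.169 to 0.184 CPM per library. A further 10 had between 0 and 3 counts in each library. The most counts in the untested group, 64 over the 4 libraries, belonged to Cxcl2. Ccl19 and Ccl20, attractants of dendritic cells, had at most 6 counts in any library. Their receptors were low too, with 4 and 12 counts of Ccr7 in the deletion libraries, against 2 and 6 in the controls, and at most 2 of Ccr6 in any library. Ccl17 and Ccl22 had at most 4 counts in any library, and their receptor Ccr4 had 5 and 0 counts in the deletion libraries, against 0 and 0 in the controls. The pseudogene Ccl19-ps3 had 21 counts in control replicate 1 and 0 in each other library, and its reads can be shared with near-identical Ccl19 copies. Ccl28 had 15 and 9 counts in the deletion libraries, against 10 and 6 in the controls. Ccr10, its receptor, had 7 and 3 counts in the deletion libraries, against 4 and 7 in the controls. Ccr9 had 3 and 5 counts in the deletion libraries, against 2 and 0 in the controls, a ratio of 3.27 (exact counting interval 0.653 to 31.6, counting error only). Ccl8, Ccl11, Ccl12, Ccr1l1 and Cxcl17 had at most 5 counts in any library.

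Other genes of the chemokine pathway were followed in 4 lists of 89 genes, of which 83 were tested. Of these, 8 rose and 0 fell in edgeR, or 9.64% higher, against 4.41% of all genes. With DESeq2 the counts were 14 and 1, against 6.57% and 4.25% of all genes it tested. At an unadjusted p under 0.05 they were 28 and 2, against 14.0% and 10.5% of all genes. The lists had a median log2 fold change of 0.34. Without deletion replicate 1 the count of rises was 4 (2.20% of all genes tested), and without deletion replicate 2 it was 1 (1.59%). Ligands outside the naming rule (7 of 8 tested) had 0 calls in edgeR or DESeq2, and 0 had an unadjusted p under 0.05. Among 38 tested genes of receptor signalling, 3 rose. Elmo1, which with Dock2 activates Rac in migrating cells, had 8.13 and 7.31 CPM in the deletion libraries, against 2.04 and 2.27 CPM in the controls (log2 fold change 1.84 ± 0.27, edgeR adjusted p = 0.0192). The myeloid Src-family kinase Fgr rose by 1.34 ± 0.27 and the receptor kinase Grk3 by 0.84 ± 0.18 on the log2 scale (edgeR adjusted p = 0.0422 and 0.0482).

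Among 18 tested genes of processing, shedding and presentation, Adam10 and Mmp14 rose, where 4.41% of all genes were called higher. Adam10, the protease that sheds Cxcl16 and Cx3cl1, had 52.9 and 60.0 CPM in the deletion libraries, against 30.4 and 31.9 CPM in the controls (log2 fold change 0.86 ± 0.15, edgeR adjusted p = 0.0284). Mmp14, a membrane metalloprotease, rose by 1.13 ± 0.21 (edgeR adjusted p = 0.0348). Of 20 tested adhesion genes, Icam1, F11r and Cd44 rose. Icam1, the endothelial and hepatocyte ligand of leukocyte integrins, had 71.7 and 33.0 CPM in the deletion libraries, against 11.1 and 14.3 CPM in the controls (log2 fold change 2.04 ± 0.38, edgeR adjusted p = 0.0338). F11r, a junctional adhesion molecule, rose by 1.21 ± 0.15, and Cd44, a hyaluronan receptor, by 0.74 ± 0.16 (edgeR adjusted p = 0.0121 and 0.0471). With limma-voom Icam1 and Cd44 did not pass (0.0514 and 0.0554), nor did Cd44 with DESeq2 (0.0510). With deletion replicate 1 left out, only Mmp14, Icam1 and F11r of these 8 passed, and with deletion replicate 2 left out only Icam1. With control replicate 1 left out, Grk3 and Cd44 did not pass (0.0781 and 0.0626).

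**Figure D4:**
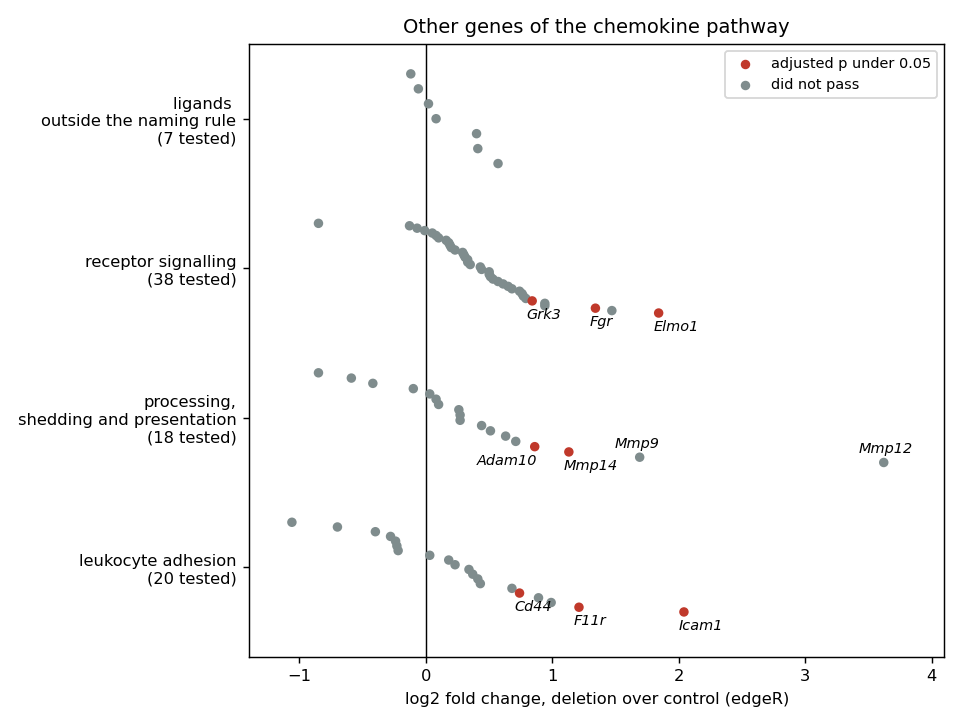
Log2 fold change of deletion over control for the 83 tested genes of 4 chemokine pathway lists, each point 1 gene, ordered by value within its list. The 8 called genes, in red, lie between 0.74 and 2.04, and the uncalled Mmp9 and Mmp12 lie at 1.69 and 3.62.

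Marker lists of the cells that make or sense chemokines are given beside these results. Kupffer cell markers summed to 895 and 726 CPM in the deletion libraries, against 433 and 603 CPM in the controls, and all 9 were tested, with 1 higher (Cd5l) and 0 lower. Over all tested genes, edgeR called 4.41% higher and 2.16% lower. At an unadjusted p under 0.05, 7 of the 9 Kupffer markers were higher (14.0% of all genes), and DESeq2 called 2 higher (6.57%). For 8 of the 9, both deletion libraries lay above both controls, as for 28.7% of all tested genes. Hepatocyte markers summed to 67277 and 61999 CPM in the deletion libraries, against 162564 and 159578 CPM in the controls, and 3 of 10 fell in edgeR. DESeq2 called 8 of the 10 lower (4.25% of all genes), and 8 were lower at an unadjusted p under 0.05 (10.5%). In both deletion libraries, 9 were below both controls, as were 27.3% of all tested genes. Stellate cell markers (9 tested), B cell markers (5 tested), dendritic cell markers (5 tested) and sinusoidal endothelial markers (8 tested) had 0 calls in edgeR. At an unadjusted p under 0.05, the stellate list had 1 higher and 2 lower, the B cell list 1 and 0, the dendritic list 1 and 0 and the endothelial list 0 and 2. DESeq2 called 0, 0, 0 and 1 of them. Of 8 cholangiocyte markers, 2 rose in edgeR (Spp1 and Sox9), and DESeq2 called 2 higher. At an unadjusted p under 0.05, 3 were higher and 1 lower. The 8 summed to 1371 and 1971 CPM in the deletion libraries, against 128 and 76.6 CPM in the controls. By log2 fold change 4 were higher and 4 lower, with a median of -0.09. Krt19, the defining keratin, had 53 and 77 counts in the deletion libraries, against 635 and 47 in control replicates 1 and 2. The part of cell composition in the chemokine differences was not tested.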

How the data were processed

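QuantSeq 3' libraries were sequenced as single-end 75 bp reads that were aligned with Bowtie2, per the labels' protocols. Builds mm10 and GRCm38 appear per the submitters' processing notes. Which program counted the reads, with which strand setting and annotation, is not given in the sources used here. Raw counts per Ensembl gene were deposited by the authors in 4 sample columns. Here, symbols and coordinates came from GENCODE M21 (GRCm38), which matched 52029 of 56953 rows. The deletion group was tested against controls by quasi-likelihood in edgeR 4.0.16 (R 4.3.3, two-sided, genotype as the only term, TMM scaling, filterByExpr with a minimum count of 10). Benjamini-Hochberg adjustment ran over all 14600 genes that passed, and a gene was called at an adjusted p under 0.05. Residual degrees of freedom numbered 2. Each SE was derived as the absolute log2 fold change divided by the square root of the quasi-likelihood F statistic, since edgeR reports none for this test. The test was also tried on simulated counts, drawn from the control means and the dispersions of the fit to the real counts. Alternatives were other scalings, DESeq2 1.42.0, limma-voom 3.58.1, other filters, a replicate block and each library left out. The labels do not say that equal replicate numbers share an animal, litter or day, so the libraries were not treated as pairs.

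The genes, the pathway and marker lists and the motifs were chosen with earlier results of these data known. All 65 genes enter the counts, and the values of 1 tested gene are not reported here. Full statistics are otherwise given for those called, those with an unadjusted p under 0.05 and the 4 with the highest mean level. Each other tested gene is named with its values, and the others by counts or range. Beyond the family, Ube2n, the sex-linked genes and the called genes of the pathway lists are named (at most 6 a list, by smallest p); Mmp9, Mmp12, the overlapping genes and the marker genes were named after their values were seen. The promoters are those of the called ligands, with Cxcl10 and Cxcl1 added after their values were seen. Promoter windows and motif matches came from RefSeq sequences (GRCm38.p6). Protein sequences were not used here.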

Additional observations from a re-analysis of the deposited data

How the results depend on the processing

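The deletion and control libraries share replicate numbers, but the labels do not say that a number pairs them; the deviations of libraries numbered 1 from their group means had a correlation of -0.12 across genes. With a replicate block, 390 genes were called in all (959 without), 5 chemokine genes were higher and 1 pathway gene was higher. Of the chemokine genes, the block kept Cxcl14, Cxcl9 and Cxcl16, lost Ccl9 (edgeR adjusted p = 0.0634) and Cx3cr1 (0.103), and added Ccl2 (0.0365) and Cxcl1 (0.0338). Over all genes, 1764 were called with library sizes alone, 1567 with DESeq2 and 2768 with no filter on low counts, and 343 to 2081 with 1 library left out (499 without deletion replicate 1, 343 without deletion replicate 2, 1700 without control replicate 1 and 2081 without control replicate 2). Chemokine genes called higher numbered 8, 10 and 15 under the first 3 settings and 3 to 11 with 1 library left out. Those called lower numbered 1 with DESeq2, 3 with no filter, 1 with at least 30 counts in 2 libraries and 0 to 2 with 1 library left out. Pathway genes called higher numbered 23, 14 and 22 with library sizes alone, DESeq2 and no filter, and 1 to 20 with 1 library left out; those called lower numbered 1 with DESeq2, 2 with no filter and 0 to 1 with 1 library left out. Cxcl14, Cxcl9 and Cxcl16 passed under all 11 alternatives. Library sizes alone moved the median of all genes by 0.29 on the log2 scale. Of the 31 genes, 4 changed sign, none of them called. Ackr1 was at 0.27 with library sizes alone, 0.03 with limma-voom, 0.03 with a replicate block and -0.39 to 0.51 with 1 library left out. Ackr2 was at 0.13 with library sizes alone, and Ccr3 at 0.24, 0.10 and 0.10 under the same 3 settings as Ackr1. With 1 library left out, Ackr2, Ccl5 and Ccr3 spanned -0.74 to 0.22, -0.49 to 1.34 and -0.65 to 1.1. The cause of these changes was not tested. Genes under about 30 counts are limited by depth.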
